A study of Mus musculus with 6 samples.

Results

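Transcript levels of 10 genes of the lysosomal nutrient-sensing pathway were examined in mouse adipose-derived stem cells (ADSC), stromal cells that are isolated from fat and grown on plates. The set held the Rag GTPases Rraga, Rragc and Rragd, the folliculin gene Flcn with its partners Fnip1 and Fnip2, the transcription factors Tfeb, Tfe3 and Mitf, and the autophagy receptor gene Sqstm1. They were picked by name from a table of 56748 genes, and all 10 were among the 14502 genes that passed the filter on low counts. The set was chosen by gene name after fold changes of the same comparison were known, so its values are a description and carry no test of their own. The series compared 3 libraries of cells transduced at the same time with the integrins VLA-4 and LFA-1 (genotype label "overexpressing VLA-4 and LFA-1") with 3 libraries labelled mock (genotype label WT). The protocol text names an empty vector for the mock cells, whereas the series design describes them as unmodified. All cells were grown in DMEM with normal glucose and serum. The sources used here do not give the vector, the promoter, the age and strain of the donor animals, or whether the 3 libraries of a group were separate cultures, so the spread between libraries may be technical.

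Rag GTPases sit on the lysosome as pairs, RagA or RagB with RagC or RagD, and recruit the growth kinase complex mTORC1 when amino acids are plentiful. Folliculin, bound to Fnip1 or Fnip2, stimulates GTP hydrolysis by RagC and RagD. In that state the Rag pair also presents TFEB, TFE3 and MITF to mTORC1, which phosphorylates them and holds them in the cytoplasm. When released, these basic helix-loop-helix factors enter the nucleus and activate genes of lysosomes and autophagy, among which RRAGD, FLCN, FNIP2 and SQSTM1 have been reported in human or mouse cells. In mouse adipocytes, loss of Flcn is known to free TFE3 to the nucleus. RNA levels do not show phosphorylation or nuclear entry, and neither was measured.

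Library totals ran from 15723888 to 18381083 counts. The 4 integrin subunit genes were checked against the labels, and none was higher where overexpression was labelled. Itga4 averaged 2.51 CPM (counts scaled to equal TMM-adjusted library sizes) in the libraries labelled overexpressing and 6.51 CPM in those labelled mock, Itgb1 averaged 2228 and 2784 CPM, and Itgal and Itgb2 averaged under 1 CPM in both groups. Every direction given here is therefore between libraries as labelled. The stromal identity was checked with 9 markers. Their summed level was 9769 to 11670 CPM in the libraries labelled overexpressing and 21650 to 23340 CPM in those labelled mock. Of the 9, 6 were lower at an adjusted p of 0.05 in the edgeR fit described below, beside 23.0% of all tested genes. The collagens Col1a1 and Col1a2 made up most of both sums, Pdgfra averaged 107 CPM in the libraries labelled overexpressing and 106.5 CPM in those labelled mock, and Nt5e (CD73) averaged 0.527 and 0.387 CPM. In cultures of this kind, fewer cells of a type and less RNA per cell cannot be told apart.

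Of the 10 genes, 7 were higher, 2 were lower and 1 did not pass the threshold in the libraries labelled overexpressing, at an adjusted p of 0.05 in edgeR's quasi-likelihood fit over all genes. The same fit called 22.3% of all tested genes higher and 23.0% lower (3233 and 3339 genes). With scaling by library size alone, which moves the median over all tested genes by about 0.1 on the log2 scale to 0.12, it called 4598 higher and 2385 lower. For 7 genes every library labelled overexpressing lay above every library labelled mock (26.9% of all tested genes), for 1 gene every one lay below (26.5%), and for Tfe3 and Mitf the groups overlapped. These shares are given for scale, and nothing is read from the counts because the comparison was known when the set was chosen. Rragd stood far from the others with a log2 fold change of 2.75, and the rest lay between -0.63 and 1.15.

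**Figure D1:**
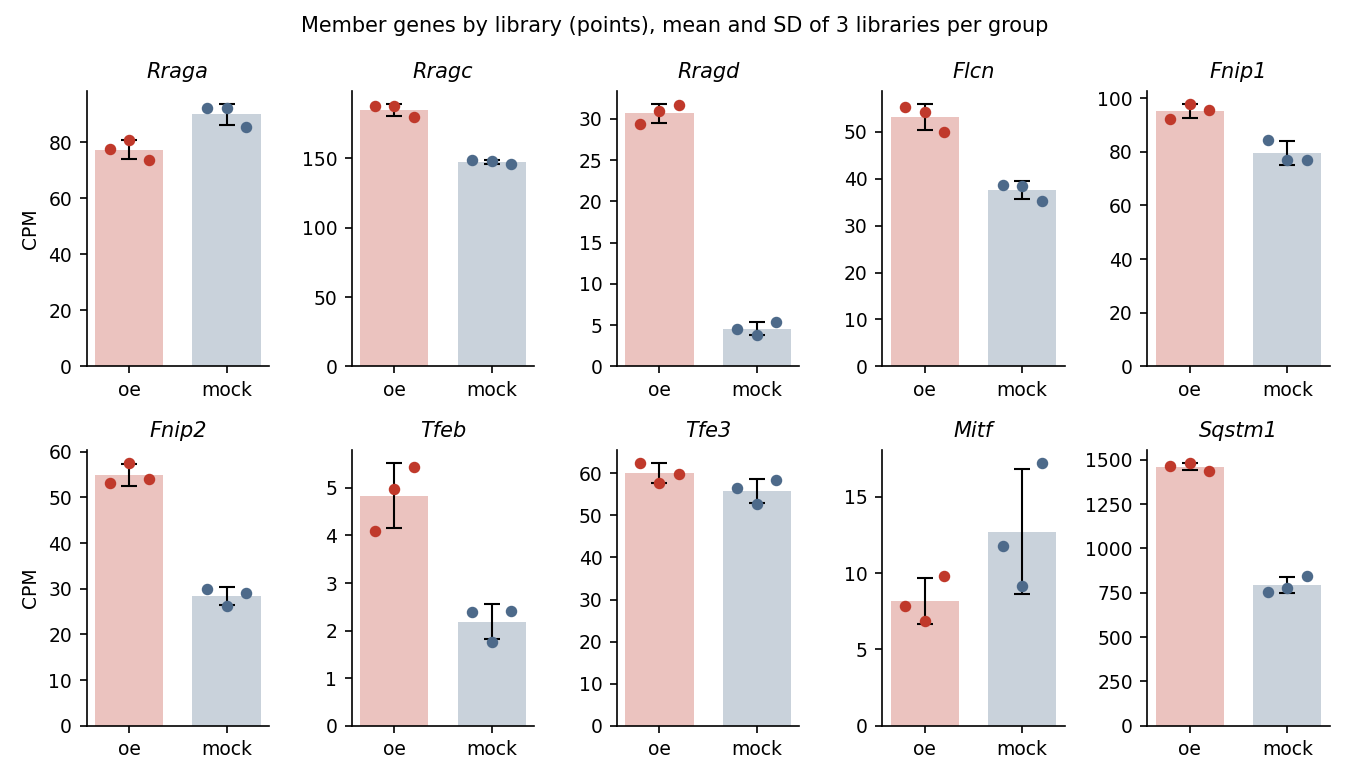
CPM of each gene in the libraries labelled overexpressing (oe, red) and mock (blue). Points are libraries, bars are means and whiskers are SD over 3 libraries. The Rragd libraries labelled overexpressing sit between 29.4 and 31.7 CPM against 3.86 to 5.37 CPM in those labelled mock, while the groups overlap for Tfe3 and Mitf.

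Rragd encodes RagD, a partner of RagA and RagB. It had 553, 510 and 570 counts in the libraries labelled overexpressing, against 79, 68 and 87 counts in those labelled mock. In CPM this was 29.4, 31.0 and 31.7 against 4.48, 3.86 and 5.37. The 3 libraries of each group lay close together and the groups were far apart. The fold was 6.71, with a log2 fold change of 2.75 (standard error, SE, 0.12), which ranked 29th of 14502 tested genes. When any library was left out, the log2 fold change stayed between 2.64 and 2.87. The gene lies on chromosome 4 from 32983037 to 33022180 (whole gene span, mm39, plus strand), and the processed pseudogene inside that span had 1 count in all 6 libraries.

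Rragc encodes RagC, the close relative of RagD. It had 188, 188 and 180 CPM in the libraries labelled overexpressing, against 149, 148 and 146 CPM in those labelled mock. The groups did not overlap, although the fold was only 1.25 (log2 fold change 0.33, SE 0.054). Rraga encodes RagA and was the only Rag gene of the set that was lower. It had 77.7, 80.7 and 73.8 CPM in the libraries labelled overexpressing, against 92.2, 92.3 and 85.7 CPM in those labelled mock. Again the groups did not overlap, and the level was 1.16-fold lower (log2 fold change -0.22, SE 0.063). With scaling by library size alone the value of Rraga was -0.11 and no longer passed the threshold.

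Rragb, which encodes RagB and is not in the set, completes the family. It was scarce, with 56 counts over the libraries labelled overexpressing and 40 over those labelled mock, and its groups overlapped (log2 fold change 0.44, SE 0.40, edgeR adjusted p = 0.392).

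To compare genes with each other, the deposited FPKM values were used, which are scaled for gene length. RagC and RagD together had 61.4, 61.2 and 59.5 FPKM in the libraries labelled overexpressing, against 45.2, 45.0 and 44.4 FPKM in those labelled mock. RagA and RagB together had 48.2, 49.6 and 45.6 FPKM in the libraries labelled overexpressing, against 57.0, 57.5 and 52.7 FPKM in those labelled mock. RagC plus RagD transcripts thus exceeded RagA plus RagB transcripts in every library labelled overexpressing and were fewer in every library labelled mock. The ratio of the sums was 1.27 ± 0.036 and 0.806 ± 0.032 (SD, n = 3 each). Rragd was the minor gene of the pair. It made up 9.68 ± 0.51% of the RagC and RagD transcripts in the libraries labelled overexpressing and 1.96 ± 0.33% in those labelled mock (SD, n = 3 each).

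The sequence before each start site was taken from RefSeq (GRCm38.p6, a different build from the mm39 of the counts), which held promoters for all 10 genes. It was searched on both strands for the E-box CACGTG, which MiT/TFE factors and other basic helix-loop-helix proteins bind, for GTCACGTG, the core of the lysosomal CLEAR element (which contains the E-box), for the M-box core TCATGTG, and for the antioxidant response element core TGACNNNGC. In windows of 250 bases before to 50 bases after the start, the E-box occurred in 7.15% of 32851 promoters, the CLEAR core in 2.25%, the M-box core in 3.77% and the antioxidant core in 12.4%. Counted per gene, with a match in any of its promoters, the shares of 27025 genes were 8.09%, 2.55%, 4.31% and 14.0%. Among the 10 genes only Rragc and Fnip1 held an E-box, none held the CLEAR or M-box core, and Fnip2 and 1 of 3 Mitf promoters held the antioxidant core. The stretches around the E-boxes of Rragc (chr4:123917294-123917353, plus strand) and Fnip1 (chr11:54438077-54438136, plus strand) are shown because they carry the matches, with the E-box in capitals.
Rragc: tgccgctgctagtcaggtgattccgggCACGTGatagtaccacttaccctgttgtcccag
Fnip1: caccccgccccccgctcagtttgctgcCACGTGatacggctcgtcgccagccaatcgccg
The E-box began 112 bases before the Rragc start and 75 bases before the Fnip1 start. The 250 bases before the start of Rragd (chr4:32982748-32982997, plus strand), the gene with the largest difference, held none of the searched letters and so have no capitals.
Rragd: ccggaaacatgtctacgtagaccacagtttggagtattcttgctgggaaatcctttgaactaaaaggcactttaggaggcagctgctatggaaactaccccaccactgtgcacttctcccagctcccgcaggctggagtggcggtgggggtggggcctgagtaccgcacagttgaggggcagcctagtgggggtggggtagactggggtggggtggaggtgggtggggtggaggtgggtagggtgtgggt
A match is a description of letters, not of binding, and no match says only that these letters are not in the window. Among tested genes with a RefSeq promoter, 29.3% of the 492 with a CLEAR core were called higher and 20.1% lower, beside 24.0% and 23.6% of the 9997 without one. The median log2 fold changes of these gene groups were 0.065 and 0.013. For the E-box, 26.7% of 1208 genes with it were higher and 21.7% lower, beside 23.9% and 23.6% of 9281 without it. Its medians were 0.035 and 0.014. For the M-box core, 25.1% of 267 genes with it were higher and 26.2% lower, beside 24.2% and 23.3% of 10222 without it. The M-box medians went the other way, at -0.012 and 0.017. Those of the antioxidant core were close, at 0.019 and 0.015. None of these differences was tested.

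Flcn encodes folliculin, the GTPase-activating protein for RagC and RagD. It had 55.3, 54.3 and 50.03 CPM in the libraries labelled overexpressing, against 38.7, 38.5 and 35.3 CPM in those labelled mock. The groups did not overlap and the fold was 1.42 (log2 fold change 0.50, SE 0.076). Fnip2, a folliculin partner, had 53.1, 57.6 and 54.1 CPM in the libraries labelled overexpressing, against 29.9, 26.2 and 29.1 CPM in those labelled mock. Its fold was 1.94 (log2 fold change 0.95, SE 0.079), with wide separation of the groups. Fnip1, the other partner, had 92.2, 97.7 and 95.4 CPM in the libraries labelled overexpressing, against 84.5, 76.7 and 77.0 CPM in those labelled mock. This was a fold of 1.20 (log2 fold change 0.26, SE 0.063), so all 3 genes of the complex were higher, by different amounts.

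In FPKM, Fnip2 made up 32.1 ± 0.42% of the Fnip1 and Fnip2 transcripts in the libraries labelled overexpressing and 22.6 ± 0.93% in those labelled mock (SD, n = 3 each). The summed Fnip transcripts stood in a similar proportion to Flcn in both groups, 1.60 ± 0.10 in the libraries labelled overexpressing and 1.66 ± 0.10 in those labelled mock, and these ratios overlapped between groups. The partners thus differed in makeup, while their sum per Flcn transcript did not differ beyond the spread between libraries. Flcn and Fnip1 are on chromosome 11 (59682234 to 59700842 and 54329025 to 54409061, mm39) and Fnip2 is on chromosome 3 (79363281 to 79475103).

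**Figure D2:**
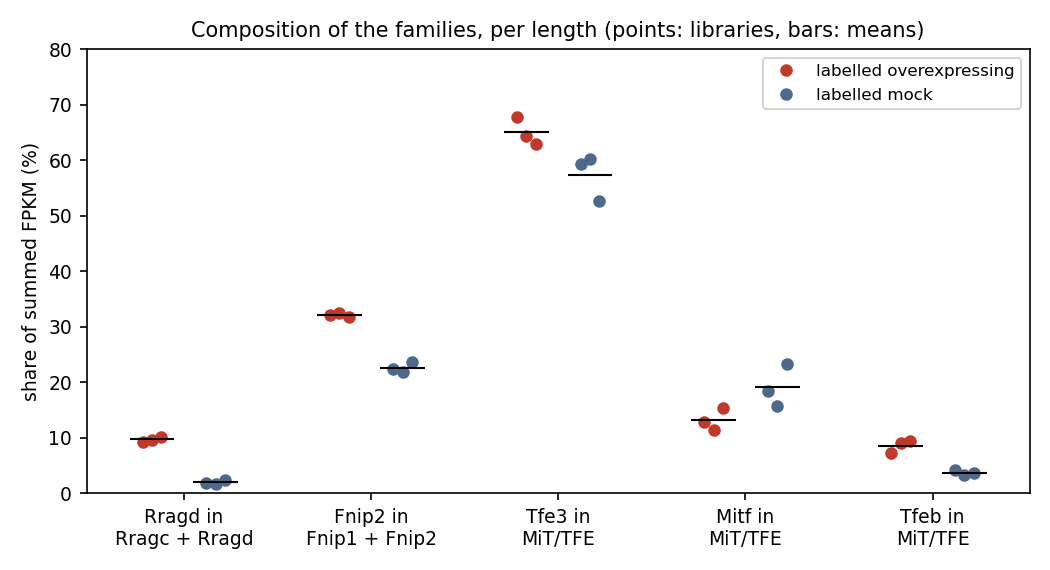
Share of summed FPKM (%) taken by a gene within its family, in libraries labelled overexpressing (red) and mock (blue). Points are libraries and black bars are means of 3 libraries. MiT/TFE is the sum of Tfeb, Tfe3, Mitf and Tfec. Rragd took 9.20 to 10.2% of the RagC and RagD transcripts in the libraries labelled overexpressing and 1.66 to 2.32% in those labelled mock.

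The MiT/TFE factor genes did not move as a group. Tfeb, the best known activator of lysosomal genes, had 77, 82 and 98 counts in the libraries labelled overexpressing, against 42, 31 and 39 counts in those labelled mock. In CPM this was 4.10, 4.98 and 5.45 against 2.38, 1.76 and 2.41, with no overlap and a fold of 2.22 (log2 fold change 1.15, SE 0.22). It was the scarcest of the 10 genes and had the largest SE. Tfe3, a close relative that acts on many of the same genes, had 62.5, 57.8 and 59.8 CPM in the libraries labelled overexpressing, against 56.4, 52.6 and 58.4 CPM in those labelled mock. These groups overlapped (log2 fold change 0.11, SE 0.070), and Tfe3 was the gene that did not pass the threshold. With scaling by library size alone its value was 0.22 and passed.

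Mitf, which specifies melanocytes and also acts in osteoclasts, had 148, 113 and 176 counts in the libraries labelled overexpressing, against 207, 162 and 279 counts in those labelled mock. In CPM this was 7.87, 6.86 and 9.78 against 11.8, 9.19 and 17.2, so the highest library labelled overexpressing lay above the lowest labelled mock. The mean was 1.56-fold lower (log2 fold change -0.63, SE 0.18). The value rested in part on mock replicate 3: without it the log2 fold change was -0.36 and no longer passed the threshold. Markers of other cells that use Mitf or its relatives were read beside it. Of 7 melanocyte markers, Tyr had no count and the summed level was 0.425 to 1.33 CPM in the libraries labelled overexpressing and 1.02 to 1.48 CPM in those labelled mock. The 8 Schwann and neural crest markers summed to 4.68 to 5.11 CPM in the libraries labelled overexpressing and 29.0 to 35.2 CPM in those labelled mock. Of the 6 tested, 5 were lower, beside 23.0% of all tested genes. Ngfr was the largest part of the mock sum, with 16.6 CPM beside 0.144 CPM in the libraries labelled overexpressing. S100b made up most of the sum in the latter, with 3.82 CPM beside 3.74 CPM in mock, and did not pass the threshold. Sox10, a neural crest factor known to activate Mitf, had 2, 0 and 0 counts in the libraries labelled overexpressing and 46, 34 and 61 counts in those labelled mock, so its highest mock library was also replicate 3. Cdh19 and Foxd3 had no count in the libraries labelled overexpressing. The part of these cells in the Mitf values was not tested.

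Tfec, the fourth gene of the family and not in the set, averaged 7.34 ± 0.75 CPM in the libraries labelled overexpressing and 11.7 ± 1.8 CPM in those labelled mock (SD, n = 3 each), which is -0.68 as log2 fold change (SE 0.15, edgeR adjusted p = 0.000578). Tfec is known mainly from macrophages and osteoclasts. The sum of 8 macrophage and osteoclast markers was 124.5 to 130.4 CPM in the libraries labelled overexpressing and 167 to 212 CPM in those labelled mock. Most of that sum was Ctsk alone, which averaged 114 and 170 CPM and was lower, as was Csf1r with 8.42 and 13.1 CPM. Cd68 averaged 3.95 CPM in the libraries labelled overexpressing and 3.14 CPM in those labelled mock and did not pass the threshold, nor did Acp5 and Oscar. Adgre1 had no count in the libraries labelled overexpressing, Itgam had none in those labelled mock, Ptprc averaged 0.101 and 0.153 CPM, and none of these 3 passed the filter. The part of such cells in the Tfec values was not tested. Per length, Tfe3 was the leading family transcript in all 6 libraries, with 65.1 ± 2.4% of the summed FPKM of Tfeb, Tfe3, Mitf and Tfec in the libraries labelled overexpressing and 57.4 ± 4.1% in those labelled mock. Tfeb had 8.56 ± 1.1% and 3.64 ± 0.41%, and Mitf had 13.2 ± 2.0% and 19.1 ± 3.8% (SD, n = 3 each). The sum of the 3 factors of the set was 8.57 ± 0.42 FPKM in the libraries labelled overexpressing and 8.42 ± 0.98 FPKM in those labelled mock, which differed by less than the spread between libraries. Mitf and Tfeb have several promoters in RefSeq, and counts per gene do not tell their isoforms apart.

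Sqstm1 encodes p62, a receptor that carries ubiquitin-tagged cargo to autophagosomes and binds Keap1, the inhibitor of the antioxidant factor NRF2. It had 1464, 1480 and 1438 CPM in the libraries labelled overexpressing, against 757, 779 and 845 CPM in those labelled mock. The groups were widely apart and the libraries labelled overexpressing were nearly level, with a coefficient of variation of 1.46%. The fold was 1.84 (log2 fold change 0.88, SE 0.057). In absolute terms it was the largest difference of the set, since Sqstm1 was also its most abundant gene, at 431 ± 5.0 FPKM in the libraries labelled overexpressing and 235 ± 13 FPKM in those labelled mock (SD, n = 3 each). The summed FPKM of the other receptor and adaptor genes Nbr1, Optn, Calcoco1, Tax1bp1, Ncoa4, Tollip and Wdfy3 was 109.5 ± 1.1 and 86.6 ± 1.2, so Sqstm1 stood at 3.94 ± 0.062 times that sum in the libraries labelled overexpressing and at 2.72 ± 0.18 times in those labelled mock. Sqstm1 lies on chromosome 11 (50090193 to 50101654, mm39, minus strand) and overlaps Mrnip on the opposite strand. The sources used here do not say whether counting used strand, and Mrnip had 75 counts in all beside 118534 for Sqstm1.

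**Figure D3:**
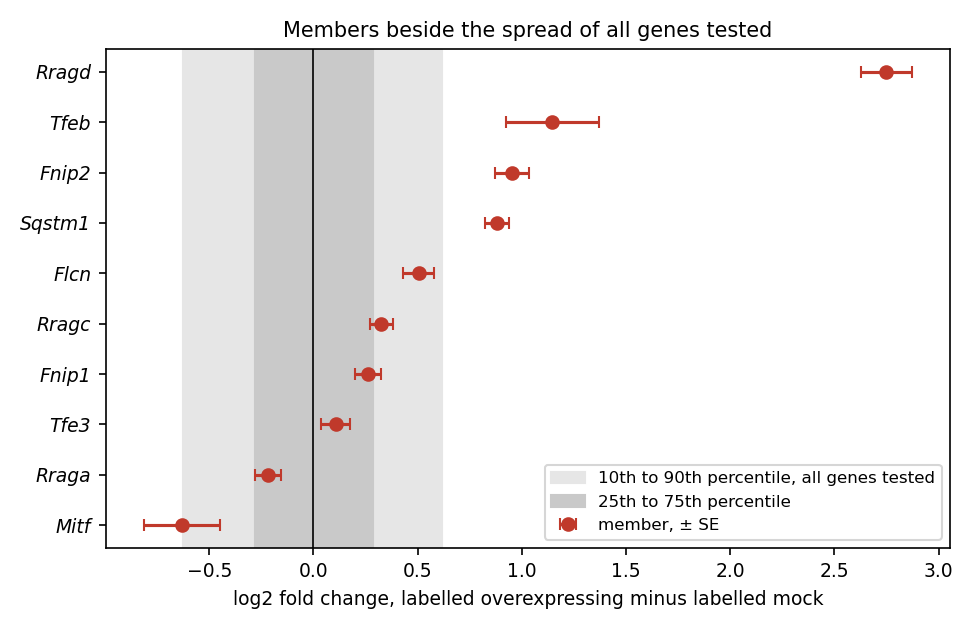
Log2 fold change of each gene (x axis, libraries labelled overexpressing minus labelled mock) with its SE as whiskers, ordered from the highest at the top. The dark band runs from the lower to the upper quartile of all tested genes (-0.28 to 0.29) and the light band from the 10th to the 90th percentile (-0.63 to 0.62). Rragd, Tfeb, Fnip2 and Sqstm1 lie to the right of the light band, and Mitf lies at its left edge.

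The order of the levels per length was nearly the same in both groups. In the libraries labelled overexpressing it ran from Sqstm1 through Rragc (54.8 FPKM), Rraga (47.3), Fnip1 (13.2), Flcn (12.2), Tfe3 (6.42), Fnip2 (6.25), Rragd (5.87) and Mitf (1.31) to Tfeb (0.845). In that order Tfe3 and Fnip2 overlapped over libraries, as did Fnip2 and Rragd, and the other neighbours did not. In the libraries labelled mock it ran from Sqstm1 through Rraga (55.4 FPKM), Rragc (44.0), Fnip1 (11.1), Flcn (8.63), Tfe3 (5.996), Fnip2 (3.25), Mitf (2.04) and Rragd (0.879) to Tfeb (0.383), with no overlap between neighbours. Rraga and Rragc exchanged places between the groups, as did Rragd and Mitf.

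The genes whose pattern was most like that of Rragd were sought over the 6 libraries by the root mean square difference of gene-centred log2 CPM, among 12056 protein-coding genes with a mean of at least 1 CPM. The nearest was Ano1, a calcium-activated chloride channel, at a difference of 0.229 log2 units. Rdm1 (0.237), Eef1a2, a translation elongation factor of neurons and muscle (0.249), Lonrf2 (0.295) and Dlk1, the preadipocyte factor Pref-1 (0.297), followed. The log2 fold changes of the 5 were 2.31 to 2.92, beside 2.75 for Rragd, so the likeness is largely a similar difference between the groups. Ano1 had 12, 8 and 16 counts in the libraries labelled mock and Rdm1 had 12, 11 and 9. Dlk1 came closest to the level of Rragd in CPM, with 25.7 ± 0.97 CPM in the libraries labelled overexpressing and 5.10 ± 0.46 CPM in those labelled mock (SD, n = 3 each). None of the 5 is on chromosome 4.

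Genes that act upstream of the Rag GTPases went both ways, as did all tested genes. Of the latter 22.3% were higher and 23.0% lower, which is the scale for the counts of this list and the lists below. Like the set, these lists were chosen with earlier results of these data known. Their counts and medians are therefore a description and carry no test of their own. Most genes named from a list were picked for the smallest p in it, so they do not stand for the list. The list of 25 held Rragb and genes of the lysosomal scaffold (Ragulator), the amino acid sensors and the GATOR and KICSTOR complexes. Of these, 8 were higher and 7 lower, with a median log2 fold change of 0.059 beside 0.0052 for all genes tested. Sec13 and Seh1l, which serve GATOR2 and the nuclear pore, fell by 0.63 (SE 0.070, edgeR adjusted p = 1.45e-07) and 0.46 (SE 0.069, adjusted p = 1.05e-05) on the log2 scale. Kptn, a KICSTOR subunit, fell by 0.87 (SE 0.19, adjusted p = 0.000589), and Castor2, of the arginine sensor family, rose by 0.49 (SE 0.083, adjusted p = 4.97e-05). The number higher was 5 with DESeq2 and 5 without mock replicate 1.

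Genes of mTORC1 and its TSC brake were higher in 9 of 14 and lower in 2, with a median log2 fold change of 0.44. Whether this list differs from all tested genes was not tested, since it was chosen with earlier results known. The number higher was 10 with scaling by library size alone, 7 with DESeq2, and 7 to 9 when any library was left out. The kinase gene Mtor had 96.1 ± 3.0 CPM in the libraries labelled overexpressing and 67.6 ± 2.0 CPM in those labelled mock (SD, n = 3 each), which is 0.51 as log2 fold change (SE 0.061, edgeR adjusted p = 5.08e-07). Eif4ebp2, a translation repressor that mTORC1 inactivates, rose by 0.73 (SE 0.062, adjusted p = 1.91e-09), and Akt1s1 (PRAS40), an inhibitory mTORC1 subunit, rose by 0.56 (SE 0.064, adjusted p = 1.72e-07). Rps6kb1, which encodes the S6 kinase, fell by 0.60 (SE 0.065, adjusted p = 1.14e-07). The genes named as higher thus included the kinase, an inhibitory subunit and a substrate that represses translation.

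**Figure D4:**
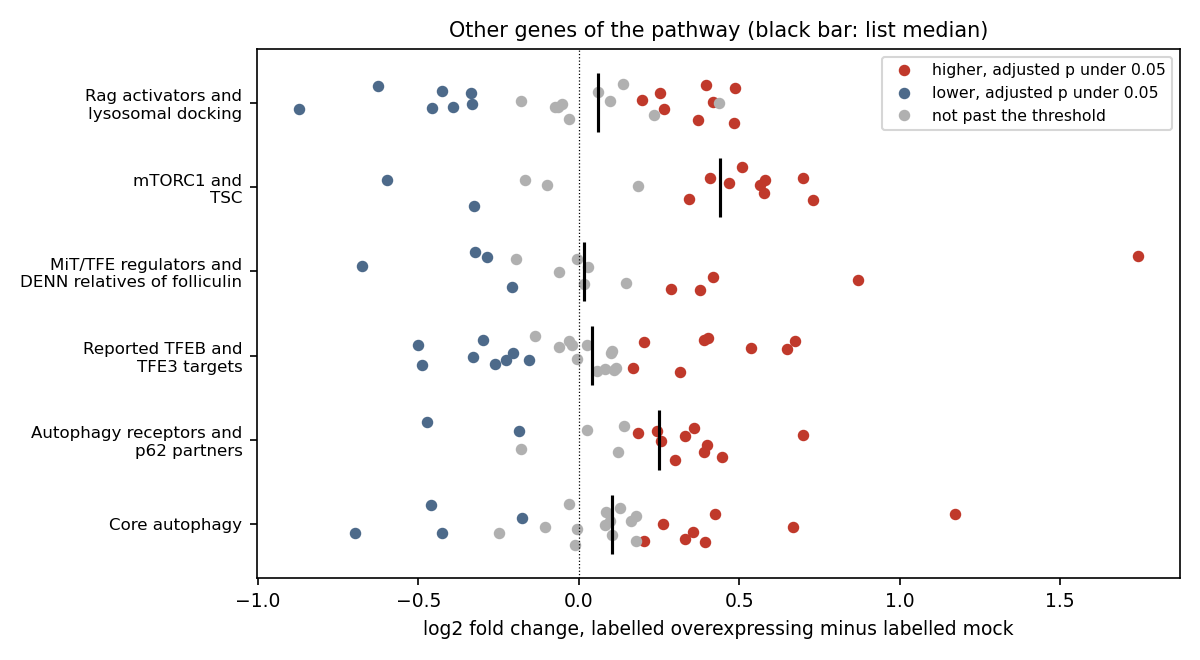
Log2 fold changes (x axis, libraries labelled overexpressing minus labelled mock) of the tested genes of 6 pathway lists. Red and blue points passed an edgeR adjusted p of 0.05 as higher or lower, grey points did not, and black bars are list medians. The median of the mTORC1 and TSC list is 0.44, and Prkaa2, at 1.74, is the point farthest to the right.

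Among 15 regulators of MiT/TFE factors and relatives of folliculin, 5 were higher and 4 lower, with a median of 0.015. Prkaa2, a catalytic subunit of the energy sensor AMPK, had 21.9 ± 2.7 CPM in the libraries labelled overexpressing and 6.53 ± 1.4 CPM in those labelled mock (SD, n = 3 each), which is 1.74 as log2 fold change (SE 0.14, edgeR adjusted p = 8.41e-10). Smcr8, which like folliculin carries DENN domains, rose by 0.87 (SE 0.066, adjusted p = 2.81e-10). Gsk3b and Gsk3a, kinases reported to phosphorylate TFEB, rose by 0.42 (SE 0.061, adjusted p = 5.77e-06) and 0.38 (SE 0.068, adjusted p = 9.12e-05). Scaled by library size alone, 2 genes of this list were lower.

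Reported targets of TFEB and TFE3 outside the set were divided. Of 30, 28 passed the filter, and 8 were higher and 8 lower, with a median of 0.040. Over all tested genes 22.3% were higher and 23.0% lower, also an almost even division. Gpnmb, a membrane glycoprotein often used as a readout of MiT/TFE activity, had 499 ± 32 CPM in the libraries labelled overexpressing and 318 ± 9.3 CPM in those labelled mock (SD, n = 3 each), which is 0.65 as log2 fold change (SE 0.058, edgeR adjusted p = 4.5e-09). Vps18, of the HOPS tethering complex, rose by 0.67 (SE 0.070, adjusted p = 4.73e-08), and Mcoln1, the lysosomal calcium channel, by 0.54 (SE 0.072, adjusted p = 1.99e-06). Gabarapl1, an Atg8 protein of autophagosomes, rose by 0.39 (SE 0.059, adjusted p = 1.01e-05). With scaling by library size alone 14 were higher and 5 lower. Ppargc1a had 6 counts over the libraries labelled overexpressing and 3 over those labelled mock, Atp6v0d2 had 4 and 10, and neither passed the filter.

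Of 16 autophagy receptors and partners of p62, 10 were higher and 2 lower, with a median of 0.25. Traf6, a ubiquitin ligase that binds p62, rose by 0.70 (SE 0.082, edgeR adjusted p = 3.34e-07), Wdfy3, an autophagy scaffold, by 0.44 (SE 0.059, adjusted p = 1.69e-06), and Tollip, a ubiquitin-binding adaptor, by 0.40 (SE 0.057, adjusted p = 5.19e-06). Nfe2l2, which encodes NRF2 and is itself an activator of Sqstm1 in mouse and human cells, had 156 ± 8.2 CPM in the libraries labelled overexpressing and 217 ± 9.9 CPM in those labelled mock (SD, n = 3 each), and fell by 0.47 (SE 0.059, adjusted p = 6.93e-07). Keap1 was higher by 0.18 (SE 0.074, adjusted p = 0.0471), but it passed under only 1 of 11 alternatives, over which its adjusted p ran up to 0.159. The number higher in this list was 12 with scaling by library size alone, 8 with DESeq2, and 8 to 9 when any library was left out. The number lower was 1 with scaling by library size alone, without overexpressing replicate 1, and without mock replicate 2.

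Core autophagy genes passed the threshold in 12 of 25, 8 higher and 4 lower, with a median of 0.10. The shares over all tested genes were 22.3% higher and 23.0% lower. Atg14, which directs the lipid kinase Vps34 to forming autophagosomes, had 28.2 ± 0.11 CPM in the libraries labelled overexpressing and 12.5 ± 0.50 CPM in those labelled mock (SD, n = 3 each), which is 1.17 as log2 fold change (SE 0.095, edgeR adjusted p = 8.95e-10). The lipid transfer protein gene Atg2a rose by 0.67 (SE 0.082, adjusted p = 6.37e-07) and the initiating kinase Ulk1 by 0.39 (SE 0.076, adjusted p = 0.000199). Atg3, which conjugates Atg8 proteins to lipid, fell by 0.46 (SE 0.073, adjusted p = 2.09e-05). With scaling by library size alone 15 were higher. Uvrag, Wipi1, Map1lc3b and Gabarapl1 each stand in 2 of these lists.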

How the data were processed

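Bulk RNA sequencing was done on 3 libraries labelled overexpressing and 3 labelled mock, grouped by sample title. The submitters' processing notes name fastp, HISAT2 (2.0.5), StringTie (1.3.3b), featureCounts (1.5.0-p3) and mm39, without role or order. The deposited table of the authors holds raw counts for each library, and FPKM values that carry a scaling per library besides depth. The deposited group means (signal of scaled counts), log2 fold changes and p-values of the authors were not used.

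Counts were fitted with edgeR (4.0.16, R 4.3.3) by the quasi-likelihood test over all 14502 genes passing filterByExpr (minimum count 10), with TMM scaling, group as the only term and Benjamini-Hochberg adjustment. Each SE was obtained from the fold change and the square root of F. The procedure was also run on simulated counts with independent replicates, in which few genes were changed, evenly in both directions. That simulation cannot show how the calls depend on scaling where many genes differ. Alternatives were RLE scaling, library size alone, no filter, DESeq2 (1.42.0), each library left out, and a replicate block. Replicates of a group differed by more than sampling noise (chi-square over its degrees of freedom 3.55 to 7.47). Each library was counted as 1 replicate. That spread does not show whether the libraries were separate cultures, and it may be technical.

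Members and lists were chosen with earlier results of these data known. Named list genes were up to 4 per list with the smallest p, an adjusted p under 0.05 and a mean of at least 1 CPM, plus Gpnmb, Keap1, Nfe2l2 and Tfec and the 5 genes nearest to Rragd. Outside that rule, Rragb was named to complete its family, Ppargc1a and Atp6v0d2 as targets that did not pass the filter, marker and integrin genes as checks, and further targets in the closing observations after their values were seen. Some single genes of the lists are not reported here. Protein sequences were not compared here. A count of 3 corresponds to 0.160 to 0.185 CPM on these library sizes.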

Additional observations from a re-analysis of the deposited data

How the results depend on the processing

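No log2 fold change of the 10 genes, of Rragb, or of a list gene given in the report with an adjusted p changed direction under 11 alternatives (RLE factors, library size alone, no filter, DESeq2, the replicate block and each of 6 libraries left out). Targets named under the other observations alone were recomputed only as counts and medians of their groups. With library size alone, 1 of the 10 genes was lower in place of 2, as were 2 regulators of MiT/TFE factors in place of 4 and 1 autophagy receptor or partner in place of 2. In the same setting 14 reported targets were higher and 5 lower in place of 8 each, and 15 core autophagy genes were higher in place of 8. With DESeq2, 5 upstream Rag regulators were higher in place of 8. Over single left-out libraries the number of the 10 genes that were lower was 1 to 2, that of upstream Rag regulators higher 5 to 8, that of reported targets higher 6 to 8 and lower 6 to 9, that of core autophagy genes higher 7 to 9, that of MiT/TFE regulators lower 3 to 4, and that of autophagy receptors and partners lower 1 to 3. In the same settings 7 to 9 mTORC1 and TSC genes were higher in place of 9, and 8 to 9 autophagy receptors and partners in place of 10. The cause of these differences was not tested beyond the shift that library size alone gives to all genes. Same-numbered libraries did not deviate together (correlations of deviations 0.010, 0.016 and 0.0034). Deviations within groups of 3 libraries cannot show how the cultures were made, so whether the numbers pair the samples is not known. With the replicate block 3183 genes were higher and 3297 lower, against 3233 and 3339 without it. Tfeb had 31 to 98 counts per library and Mitf 113 to 279, which limits their precision. The motif counts of the 10 genes were the same in the 250 bases before the start alone.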

Other observations

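The reported targets of TFEB and TFE3 fell into groups of different function, a division noticed after their values were seen and therefore given without a test. All 8 targets that were lower encode lysosomal enzymes, among them Naglu, Gla, Ctsb, Hexa, Neu1 and Ctsa, with log2 fold changes of -0.50 to -0.16. Only hydrolases of the lysosomal lumen were counted as enzymes here. None of these 13 genes was higher, and their median log2 fold change was -0.21. The 8 that were higher encode other proteins of lysosomes and autophagosomes: Vps18, Gpnmb, Mcoln1, Pip4p1, Gabarapl1, Vps11, Uvrag and Clcn7. None of the 15 genes outside these hydrolases was lower, and their median was 0.17. A wider class of enzymes would also take in the lipid phosphatase gene Pip4p1, which was higher. It would take in the proton pump genes Atp6v0d1, Atp6v1h and Atp6v1c1 as well, which did not pass the threshold. Scaled by library size alone, the hydrolase genes had a median of -0.093 (5 lower, 3 higher) and the other genes one of 0.28 (11 higher, 0 lower). Naglu, which breaks down heparan sulfate, averaged 27.6 ± 0.81 CPM in the libraries labelled overexpressing and 39.1 ± 4.9 CPM in those labelled mock, and Ctsb, a cysteine protease, 826 ± 55 and 1039 ± 42 CPM (SD, n = 3 each).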
